A study of Mus musculus with 4 samples.

Results

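The genes considered here were 10 genes that place, copy, remove or protect 5-methylcytosine in mammalian DNA, taken by name from the series and present in both its tables: Dnmt1, Uhrf1, Dnmt3a, Dnmt3b, Dnmt3l, Tet1, Tet2, Tet3, Zfp57 and Trim28. The raw table lists 37620 genes, of which 15462 are in the authors' normalized table, and all 10 members passed that table's filter on low counts. RNA was sequenced from 4 cultures of R1 mouse embryonic stem cells (ESCs) of strain 129/Sv, either wild type (WT) or Cripto KO, lacking Cripto (gene symbol Tdgf1), a co-receptor for Nodal. Each genotype was grown in serum/LIF, which holds ESCs in a naive-like state, or was plated sparsely in N2B27 with Activin A at 20 ng per ml and bFGF for 6 days (F/A), the condition labelled EpiSC, for epiblast stem cells. The 4 groups therefore were WT serum/LIF, WT F/A, Cripto KO serum/LIF and Cripto KO F/A, with 1 library each. The study kept 2 KO clones, and the labels do not say which of them gave the KO libraries, so genotype cannot be told apart from clone here.

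Cytosine methylation at CpG sites is written by DNA methyltransferases. Dnmt1, guided by Uhrf1, copies the pattern onto the daughter strand after replication, whereas Dnmt3a and Dnmt3b place new methyl groups, helped by Dnmt3l, a relative that has no catalytic activity of its own. Tet1, Tet2 and Tet3 oxidize 5-methylcytosine, which opens the way to its removal, and Zfp57, a zinc finger protein, brings Trim28 and its partners to methylated imprinting control regions. Naive mouse ESCs in serum and epiblast-like cells are known to differ in the use of several of these proteins.

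The regions just before the start sites of 6 of these genes are given here. Dnmt3l, Tet1, Tet2, Tet3 and Zfp57 are the genes whose values ranged most widely over the libraries. Dnmt3b was added, with log2 ratios of F/A over serum/LIF of 1.23 in WT and 0.34 in Cripto KO. Each region is the 250 bases before a RefSeq start site, read from the RefSeq promoter table of GRCm38.p6. It matched exactly and only once on the gene's strand of its own chromosome in NCBIM37, the build of the files, whose coordinates are given. Other chromosomes were not searched. Bases run 5′ to 3′ on the gene's strand, in lower case, with every CpG in capitals.
Dnmt3l, chr10:77512337-77512586, plus strand: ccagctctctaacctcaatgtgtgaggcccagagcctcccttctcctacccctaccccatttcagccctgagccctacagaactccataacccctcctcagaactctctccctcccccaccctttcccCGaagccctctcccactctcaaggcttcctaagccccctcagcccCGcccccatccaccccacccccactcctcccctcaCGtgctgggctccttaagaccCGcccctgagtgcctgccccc
Tet1, chr10:62350073-62350322, minus strand: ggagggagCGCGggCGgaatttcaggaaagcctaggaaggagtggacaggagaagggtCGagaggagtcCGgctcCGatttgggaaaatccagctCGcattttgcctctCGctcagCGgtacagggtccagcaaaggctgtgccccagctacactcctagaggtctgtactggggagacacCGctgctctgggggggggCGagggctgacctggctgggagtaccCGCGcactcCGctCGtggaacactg
Tet2, chr3:133207355-133207604, minus strand: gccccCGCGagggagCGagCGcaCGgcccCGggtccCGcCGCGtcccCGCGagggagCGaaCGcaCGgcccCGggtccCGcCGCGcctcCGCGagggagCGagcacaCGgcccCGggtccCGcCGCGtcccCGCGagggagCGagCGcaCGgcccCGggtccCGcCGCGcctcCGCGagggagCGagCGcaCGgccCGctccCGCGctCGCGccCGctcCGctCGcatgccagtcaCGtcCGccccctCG
Zfp57, chr17:37137858-37138107, plus strand: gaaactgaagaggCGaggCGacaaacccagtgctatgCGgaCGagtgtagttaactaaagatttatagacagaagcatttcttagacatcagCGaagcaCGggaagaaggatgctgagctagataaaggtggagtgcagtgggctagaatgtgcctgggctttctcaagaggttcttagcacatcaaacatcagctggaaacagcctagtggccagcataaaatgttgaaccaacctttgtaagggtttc
Tet3, chr6:83391673-83391922, minus strand: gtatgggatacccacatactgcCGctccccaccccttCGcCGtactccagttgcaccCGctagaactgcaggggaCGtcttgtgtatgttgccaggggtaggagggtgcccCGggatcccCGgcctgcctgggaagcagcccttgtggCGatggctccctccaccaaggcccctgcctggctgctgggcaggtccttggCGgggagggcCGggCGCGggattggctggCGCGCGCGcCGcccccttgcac
Dnmt3b, chr2:153474935-153475184, plus strand: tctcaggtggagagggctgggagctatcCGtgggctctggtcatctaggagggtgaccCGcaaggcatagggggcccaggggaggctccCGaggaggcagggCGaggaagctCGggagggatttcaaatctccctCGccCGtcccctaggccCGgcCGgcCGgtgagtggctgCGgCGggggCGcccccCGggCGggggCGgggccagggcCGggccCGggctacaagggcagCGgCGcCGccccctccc

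The 6 sequences differ in how many CpGs they hold. The Tet2 window held 51 CpGs, the Dnmt3b window 21, the Tet3 window 17 and the Tet1 window 15, against a median of 6 over all 32851 promoter windows of the same length. The Zfp57 window held 6 and the Dnmt3l window 4. The 3 start sites that RefSeq lists for Dnmt3l had 5, 4 and 3, and those for Zfp57 had 6, 7 and 3. The start sites of the printed Dnmt3l and Tet1 windows lie 7895 and 11794 bases downstream of the annotated gene starts. Among the 19 windows of the 10 genes, the GC box GGGCGG, searched on both strands, was in 12, against 32.7% of all windows. The E2F-type motif TTTNNCGC was in 4 windows, of Dnmt1, Uhrf1 and Zfp57, against 4.28% of all windows, and none of the motifs TNAAGGTCA (ESRRB), TTCCNGGAA (STAT), ATTTGCAT (OCT), AATNCACA (FOXH1) or CTTTGAT (TCF) was in any of the 19. A match is a description of letters and says nothing of binding.

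The libraries held between 15230856 and 17315442 counts on genes. With 1 library per group there was no replicate error and no test was run, so every difference below is a value between a pair of libraries, which culture-to-culture variation can also produce. Counts in the text are the raw counts of the authors, ratios are of their quantile-normalized counts, and intervals are 95% intervals for counting error only. In the F/A Cripto KO library 3 of 18700 detected genes had an odd count, so its counts were taken as doubled and divided by 2 for the intervals. The libraries bore out their labels for the knocked-out gene, whose count was 18714 in WT and 945 in Cripto KO in serum/LIF, and 1572 and 86 in F/A. The summed level of 12 naive pluripotency markers was 5309 and 4645 CPM (each count scaled to its library's total) in WT and Cripto KO serum/LIF, against 134 and 100 in F/A, where Nr0b1 was at 0 in both. A list of 10 markers of the formative and primed epiblast summed to 213 and 231 CPM in serum/LIF and to 1245 and 795 in F/A, with T, a streak gene also held by the mesoderm list, at 8748 and 5598 counts in F/A. Not every marker went with the label EpiSC: Foxd3 was at 736 and 1238 counts in serum/LIF and 30 and 2 in F/A, and Otx2 was at 1307 and 2375 in WT but 1023 and 678 in Cripto KO. The trophoblast list summed to 2457 and 2661 CPM in F/A against 124 and 88.9, mostly from the keratins Krt8 (19493 and 21894 counts) and Krt18 (14581 and 16184), while Tfap2c and Ascl2 were lower in F/A. The mesoderm list summed to 862 and 823 CPM against 7.10 and 6.83, and the primitive endoderm list to 793 and 848 against 210 and 151. The general pluripotency list summed to 1350 and 1211 CPM against 3239 and 3186. Within it Pou5f1 had 1810 and 1216 counts in F/A against 26857 and 21995, and Sox2 612 and 750 against 12560 and 12669. In each genotype 1 of its 6 genes was at least 2-fold higher in F/A, while 4 were lower in WT and 5 in Cripto KO. These are RNAs of whole cultures, so fewer cells of a type and less RNA per cell cannot be told apart, and the part that other cell types play in the values below was not tested.

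**Figure D1:**
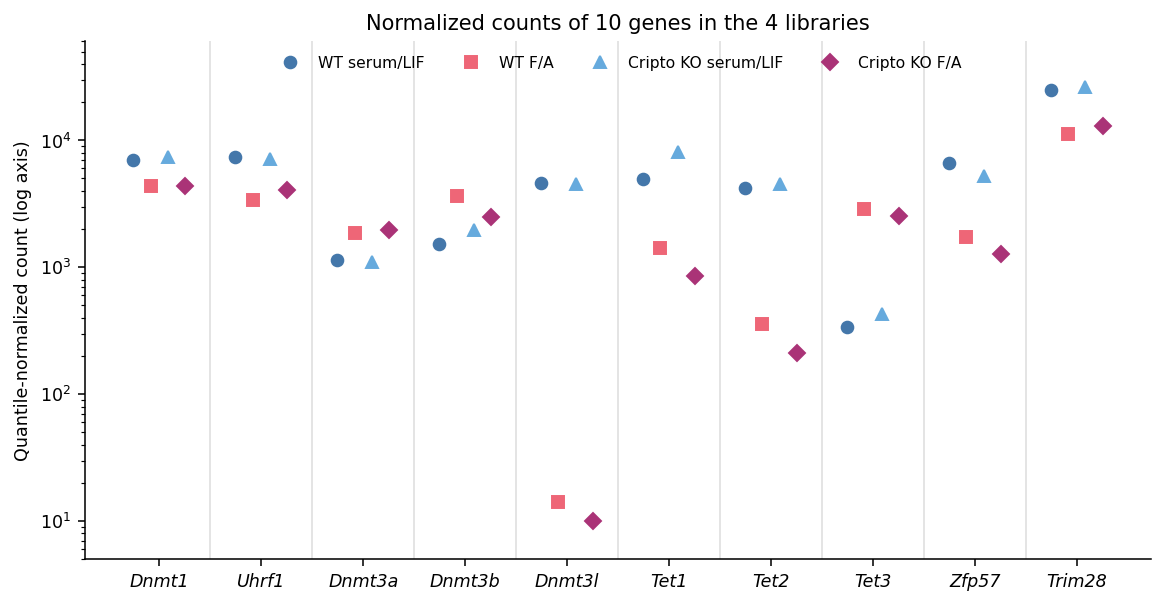
Quantile-normalized counts (log axis) of the 10 genes in the 4 libraries, 1 point per library. Dnmt3l lies between 4485 and 4646 in both serum/LIF libraries and at 14.2 and 10 in F/A. Tet3 has the largest rise, from 336 and 431 to 2860 and 2526, and Dnmt3a and Dnmt3b are also higher in both F/A libraries.

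Of the 10 genes, 2 were at least 2-fold higher in WT F/A than in WT serum/LIF (Dnmt3b and Tet3), 6 were at least 2-fold lower (Dnmt3l, Tet2, Zfp57, Tet1, Trim28 and Uhrf1) and 2 were in between (Dnmt1 and Dnmt3a). In all 15462 genes tested the same comparison called 22.1% higher and 20.9% lower. In Cripto KO, 1 gene was higher (Tet3) and 5 were lower (Dnmt3l, Tet2, Tet1, Zfp57 and Trim28), against 19.9% and 19.4% of all genes. The median log2 ratio of the 10 genes was -1.13 in WT and -0.93 in Cripto KO, against -0.07 in each over all genes.

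Among the maintenance genes, Dnmt1 (chr9:20711650-20757317, minus strand), the methyltransferase that copies methylation after replication, had 7426 counts in WT serum/LIF, 4202 in WT F/A, 7586 in Cripto KO serum/LIF and 4276 in Cripto KO F/A. Both F/A libraries were lower, by a log2 ratio of -0.67 (-0.73 to -0.62) in WT and -0.76 (-0.83 to -0.69) in Cripto KO, so Dnmt1 was reduced in each genotype by less than 2-fold. Uhrf1 (chr17:56442744-56462909, plus strand), which recruits Dnmt1 to hemimethylated DNA, had 7885, 3309, 7297 and 3922 counts in the same order. Its log2 ratio was -1.11 (-1.17 to -1.05) in WT and -0.82 (-0.90 to -0.75) in Cripto KO. A list of 21 S-phase genes moved in the same direction, with 10 of them at least 2-fold lower in WT, 7 in Cripto KO and none higher, and medians of -0.91 and -0.68, where 20.9% and 19.4% of all genes were lower. Mcm3, a subunit of the replicative helicase, was at -1.78 in WT, and Mcm5, another subunit, at -1.73. The part of cell cycling in the Dnmt1 and Uhrf1 values was not tested.

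Among the de novo methyltransferases, Dnmt3a (chr12:3806007-3914443, plus strand) and Dnmt3b (chr2:153475186-153513466, plus strand) had higher values in F/A, except that the Dnmt3a ratio in WT turned to -0.04 once the length trend by longest transcript was removed. Dnmt3a had 1182, 1809, 1082 and 1900 counts in WT serum/LIF, WT F/A, Cripto KO serum/LIF and Cripto KO F/A, a log2 ratio of 0.70 (0.59 to 0.81) in WT and 0.84 (0.71 to 0.97) in Cripto KO. Dnmt3b had 1593, 3515, 1971 and 2384 counts, a log2 ratio of 1.23 (1.15 to 1.32) in WT and of 0.34 (0.24 to 0.45) in Cripto KO. The Dnmt3b gain was thus 2.35-fold in WT and 1.27-fold in Cripto KO, and the F/A value of Cripto KO lay below that of WT while its serum/LIF value lay above.

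Dnmt3l (chr10:77504692-77526367, plus strand), the catalytically inactive cofactor, showed the widest range. It had 4926 counts in WT serum/LIF and 4522 in Cripto KO serum/LIF, and 13 and 8 counts in WT and Cripto KO F/A. The ratio was 326-fold lower in WT (interval 190-fold to 613-fold) and 448.5-fold lower in Cripto KO, which are the decreases of rank 63 and 55 among 15462 genes. Its log2 ratios of -8.35 (-9.26 to -7.57) and -8.81 (-10.69 to -7.45) overlap widely. The 13 and 8 counts are over the detection limits of 3 and 6 counts. The exons of Dnmt3l share 67 bases with Aire on the other strand, which had 905 and 537 counts in serum/LIF and 2 and 0 in F/A, and whether the counting used strand is not given in the sources used here. Of 10811 genes with at least 200 counts in their highest library, Klf2, a naive pluripotency factor, was among the 5 nearest to Dnmt3l in pattern, with 6136, 16, 5420 and 12 counts in WT serum/LIF, WT F/A, Cripto KO serum/LIF and Cripto KO F/A. The other 4 of the 5 (BC020535, Gstp2, 1700029P11Rik and Gm13138) had 0 or 1 count in each F/A library, so their distances depend on the 0.5 that replaced 0.

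The Tet dioxygenases parted in direction. Tet1 (chr10:62267318-62361866, minus strand) had 5210 counts in WT serum/LIF, 1398 in WT F/A, 8346 in Cripto KO serum/LIF and 860 in Cripto KO F/A. Its log2 ratio was -1.81 (-1.89 to -1.72) in WT and -3.24 (-3.38 to -3.10) in Cripto KO. Tet2 (chr3:133126643-133207354, minus strand) had 4451, 340, 4529 and 210 counts, with log2 ratios of -3.57 (-3.73 to -3.41) in WT and -4.42 (-4.71 to -4.14) in Cripto KO, an 11.9-fold and a 21.4-fold reduction. Tet3 (chr6:83312367-83391672, minus strand) went the other way, with 355, 2787, 416 and 2428 counts and log2 ratios of 3.09 (2.93 to 3.25) in WT and 2.55 (2.39 to 2.71) in Cripto KO. Tet3 was the member whose F/A values lay farthest above its serum/LIF values, 8.52-fold in WT and 5.86-fold in Cripto KO.

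**Figure D2:**
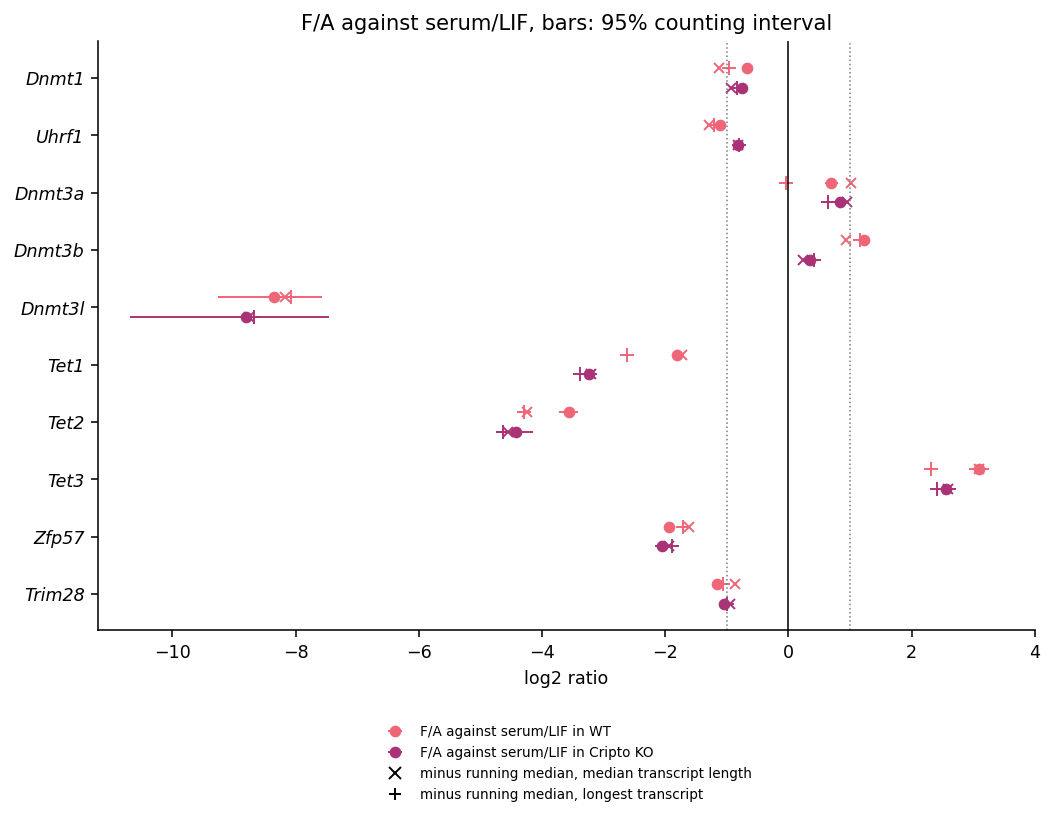
Log2 ratios of normalized counts, F/A over serum/LIF, with 95% counting intervals, for WT and Cripto KO; crosses and plus signs give the ratio after subtracting the running median of genes of like transcript length, by median or longest transcript. Dotted lines mark 2-fold. Dnmt3l lies farthest below 0 and Tet3 farthest above, and the Dnmt1, Uhrf1 and Trim28 values stay near -1.

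The imprint-protection genes were both lower in F/A. Zfp57 (chr17:37138108-37147580, plus strand) had 6996, 1706, 5298 and 1256 counts, with log2 ratios of -1.93 (-2.01 to -1.86) in WT and -2.05 (-2.17 to -1.93) in Cripto KO. Trim28 (chr7:13609501-13616384, plus strand), a corepressor of many zinc finger proteins, had 28203, 10149, 26395 and 12482 counts, and log2 ratios of -1.16 (-1.19 to -1.12) in WT and -1.04 (-1.08 to -0.997) in Cripto KO. The Trim28 ratios lie close to the 2-fold line, and with the length trend removed they are -0.86 and -0.95 by median transcript length, which is under 2-fold in both. By longest transcript they are -1.07 in WT, still over 2-fold, and -0.99 in Cripto KO, just under it.

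Ratios varied with transcript length in these libraries, so the values of the longest genes depend on the length used to remove that trend. For Dnmt3a in WT the log2 ratio went from 0.70 to 1.02 by median transcript length and to -0.04 by longest transcript, so its direction in WT is not settled. Dnmt1 in WT went from -0.67 to -1.12 by median and -0.96 by longest transcript length, which places it at or near the 2-fold line. For Dnmt3b in WT it went from 1.23 to 0.94 and 1.16. Tet1 in WT went to -1.73 and -2.61, Tet2 to -4.24 and -4.29 and Tet3 to 3.09 and 2.32. Dnmt3l, Tet1, Tet2, Tet3 and Zfp57 kept their direction and stayed over 2-fold under both lengths in both genotypes.

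The levels of different genes were compared per kilobase of transcript. By either length, Trim28 was first of the 10 in all 4 libraries, Tet3 was last in both serum/LIF libraries and Dnmt3l was last in both F/A libraries. By median transcript length Trim28 stood at 2096 RPKM (CPM per kilobase of transcript) in WT serum/LIF and 858 in WT F/A, and by longest transcript at 502 and 205. Dnmt3l went from 208 to 0.625 RPKM by median length in WT, and from rank 3 to rank 10 of the 10 genes. Median and longest lengths are 820.5 and 9685 bases for Dnmt3a and 1505 and 14369 bases for Tet1, so the orders of those genes differ between the measures, and neighbours that differ only by length are not ordered.

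Within the Tet family, Tet3 made up 3.35% of the family's counts per kilobase in WT serum/LIF and 53.1% in WT F/A by median length, or 3.70% and 65.5% by longest length. In Cripto KO its share was 2.61% and 61.6%, or 3.43% and 72.9%. The Tet1 share went from 82.5% to 44.7% in WT and from 87.8% to 36.6% in Cripto KO by median length. Tet2 had 14.2% and 2.19% in WT by median length, but 55.1% and 9.50% by longest length, so which of Tet1 and Tet2 leads in WT serum/LIF depends on the length used. In Cripto KO serum/LIF Tet1 was ahead by both, with 87.8% against 9.60% and 52.2% against 44.4%. Summed counts of the family were lower in F/A, with a log2 ratio of -0.96 in WT and -1.88 in Cripto KO when counts were summed without length. In the Dnmt3 family, the Dnmt3l share went from 66.4% to 0.31% in WT and from 64.8% to 0.20% in Cripto KO by median length, or from 84.6% to 0.71% and from 81.4% to 0.58% by longest length. By median length Dnmt3a made up 71.8% of the family in WT F/A and 79.8% in Cripto KO F/A, whereas by longest length Dnmt3b did, with 80.8% and 73.3%.

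**Figure D3:**
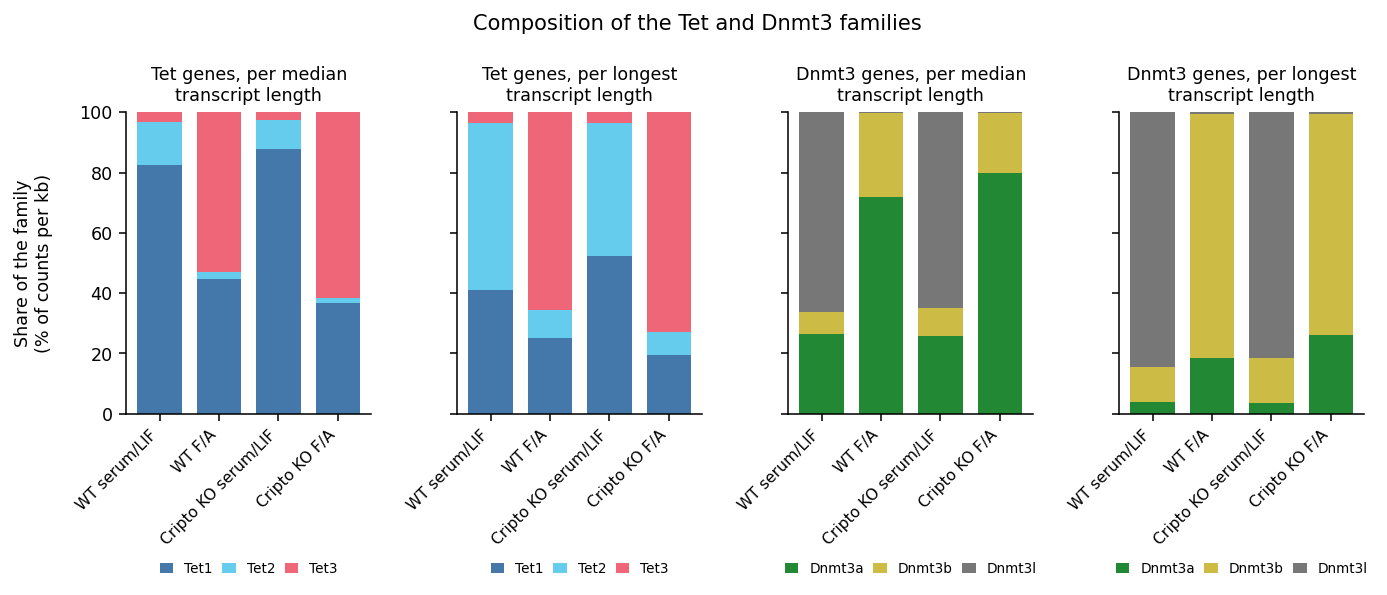
Shares (% of counts per kilobase) of the Tet genes (left panels) and Dnmt3 genes (right panels) in each library, computed with median or longest transcript length. Tet3 has the largest share in both F/A libraries by either length and Dnmt3l the largest share in both serum/LIF libraries by either length, while the order of Dnmt3a and Dnmt3b in F/A switches with the length used.

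Cripto KO and WT were next compared within each medium. None of the 10 genes differed by 2-fold in either medium. In all genes, 4.57% were at least 2-fold higher and 5.69% lower in F/A, and 2.86% and 2.73% in serum/LIF, which is the background for 0 of 10. These comparisons share libraries with the F/A against serum/LIF comparisons. In F/A, Tet2 was lower in Cripto KO with a log2 ratio of -0.76 (-1.09 to -0.44), Tet1 at -0.73 (-0.89 to -0.58), Dnmt3b at -0.55 (-0.64 to -0.45) and Zfp57 at -0.46 (-0.59 to -0.33). Dnmt3a was at 0.08 (-0.03 to 0.20) and Dnmt3l at -0.51 (-2.58 to 1.18), both with intervals that span 0. Uhrf1 was at 0.25 (0.16 to 0.33) and Trim28 at 0.21 (0.17 to 0.26) on the same scale, while Dnmt1 was at 0.01 (-0.07 to 0.08). Length adjustment left the Dnmt3b and Zfp57 values negative (-0.41 and -0.46 for Dnmt3b, -0.62 and -0.55 for Zfp57), but brought the Tet2 value to -0.35 and -0.32, the Tet1 value to -0.82 and -0.16, the Trim28 value to 0.02 and 0.20 and the Tet3 value from -0.18 to -0.13 and 0.34. Markers of cell state also differed between the same F/A libraries. Cdx2 had 104 counts in WT and 674 in Cripto KO, Hand1 196 and 1730, and Col3a1 72 and 610, with the fibroblast list summing to 74.98 and 199 CPM. Of 9 measured trophoblast genes, 2 were at least 2-fold higher in Cripto KO F/A (Cdx2 and Hand1) and 2 lower (Eomes and Ascl2). Eomes had 1963 counts in WT F/A and 422 in Cripto KO F/A, and the median log2 ratio of that list was 0. Fgf5 had 2206 and 394 counts. Among 9 measured formative and primed epiblast genes, 4 were at least 2-fold lower in Cripto KO F/A and 0 higher. Within that list Lef1, Sox3 and Dusp6 lay above WT by less than 2-fold, at log2 ratios of 0.87, 0.25 and 0.24. The mesoderm list had 3 of 10 genes higher and 2 lower, and Hand1, which both lists hold, is among the higher ones. The part of these differences in the values of the 10 genes was not tested. In serum/LIF the widest values were those of Tet1, 0.70 (0.65 to 0.75), Tet3, 0.36 (0.15 to 0.57), Dnmt3b, 0.34 (0.25 to 0.44), and Zfp57, -0.34 (-0.40 to -0.29). Tet2 was at 0.10 (0.04 to 0.16), and Dnmt1, Dnmt3a, Dnmt3l, Uhrf1 and Trim28 lay between -0.06 and 0.09. Tet1 was thus higher in Cripto KO than in WT in serum/LIF and lower in F/A.

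**Figure D4:**
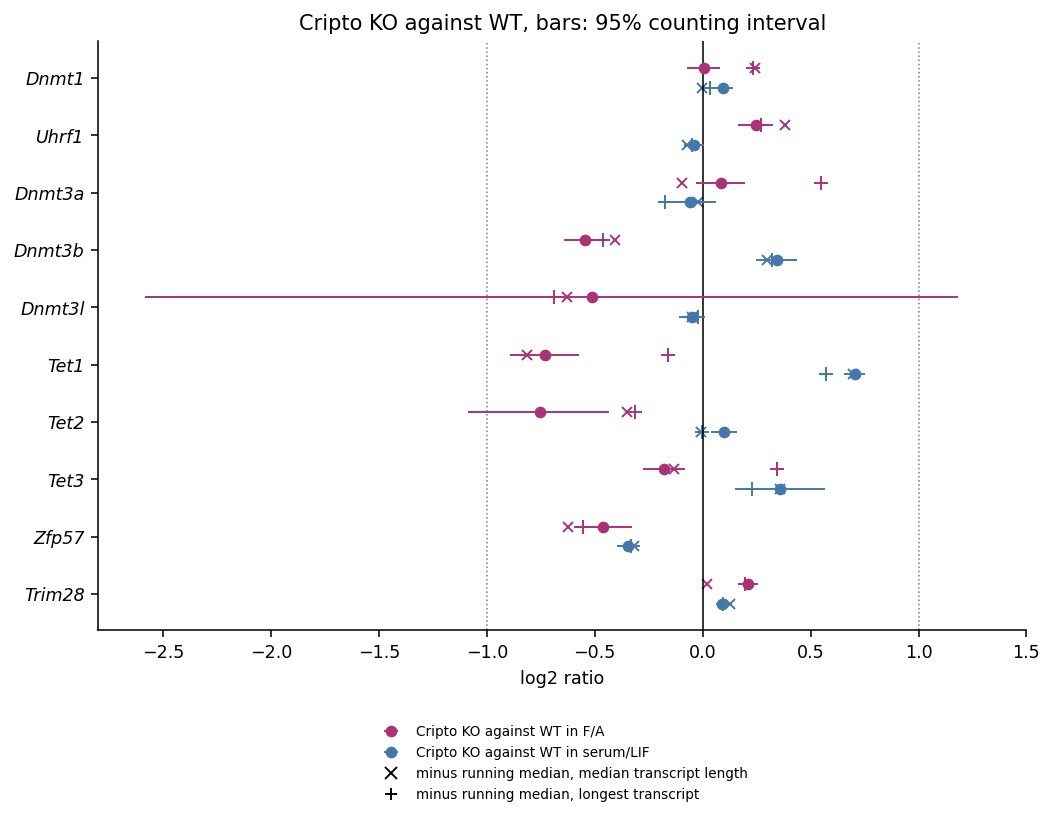
Log2 ratios of normalized counts, Cripto KO over WT, in F/A and in serum/LIF, with 95% counting intervals, and the values after removing the length trend by median (crosses) or longest (plus signs) transcript. The Dnmt3b, Tet1, Tet2 and Tet3 points lie on opposite sides of 0 in the 2 media, except that the Tet2 values fall on one side under both length adjustments and the Tet3 values by longest transcript. Dnmt3a and Uhrf1 also differ in sign, with intervals that span 0 in serum/LIF, and no value reaches 2-fold.

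The difference between the genotypes in the response to F/A was taken as the Cripto KO log2 ratio minus the WT log2 ratio. It was -1.44 (-1.60 to -1.27) for Tet1, -0.89 (-1.02 to -0.75) for Dnmt3b, -0.85 (-1.18 to -0.53) for Tet2 and -0.54 (-0.77 to -0.31) for Tet3, so these 4 genes gained less or lost more in Cripto KO, except that the Tet3 difference turned to 0.09 once the length trend by longest transcript was removed. It was 0.28 (0.19 to 0.38) for Uhrf1, 0.12 (0.07 to 0.17) for Trim28, 0.14 (-0.02 to 0.30) for Dnmt3a, -0.09 (-0.18 to 0.00) for Dnmt1, -0.12 (-0.26 to 0.03) for Zfp57 and -0.46 (-2.08 to 1.16) for Dnmt3l. Only Tet1 among the 10 differed by 1 or more, as did 17.1% of all genes, 2639 in number. Differences at least as large in size as that of Tet1 were found in 8.79% of all genes. For Dnmt3b, Tet2 and Tet3 these shares were 21.1%, 22.4% and 41.2%. Removing the length trend moved these values in both directions. By longest transcript the Tet1 difference became -0.76, that of Tet2 -0.34, that of Tet3 0.09, that of Dnmt3b -0.74 and that of Dnmt3a 0.68. By median length Tet1 was at -1.48, Tet3 at -0.50, Tet2 at -0.32 and Uhrf1 at 0.47.

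Other genes that act with these 10 were followed through lists written with earlier results of these data known. Their counts are to be read against the 22.1% of all genes higher and 20.9% lower in WT, and 19.9% and 19.4% in Cripto KO. The base excision genes, the methyl-CpG readers and the methyltransferase regulators had shares at or below these in each direction and genotype, so their counts describe single genes and not the lists. Of 11 base excision genes, which complete active demethylation, 2 were lower in both genotypes, Neil2, a glycosylase, at -2.73 in Cripto KO, and Parp1 at -1.69 in WT, and none was higher. Of 6 measured deaminase and Gadd45 genes, Gadd45b (3.30 in Cripto KO) and Gadd45g (2.43) were higher and Apobec2 (-3.13 in WT) and Apobec3 (-2.42 in Cripto KO) were lower. Apobec1 was also past 2-fold in Cripto KO, at -1.45. Of 8 methyl-CpG readers, 1 was higher in WT and 0 in Cripto KO, and that was Zbtb4, with 104, 258, 115 and 236 counts in WT serum/LIF, WT F/A, Cripto KO serum/LIF and Cripto KO F/A. Of 8 CXXC proteins, which bind unmethylated CpG, 3 were higher in WT (Cxxc4, Cxxc5 and Kmt2a) and 1 in Cripto KO (Cxxc4), with Cxxc4 having 1 count in each serum/LIF library and 153 and 152 in F/A. Kmt2b, a histone methyltransferase of that list, was 2.07-fold lower in Cripto KO than in WT in F/A.

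Of 13 measured regulators of the methyltransferases, 1 was higher and 2 were lower in each genotype. Nsd2, a histone H3 lysine 36 methyltransferase, had 1543, 4265, 1487 and 3886 counts in the same order. Hells, a remodeler needed for full DNA methylation, had 9446, 2377, 9174 and 1566 counts, and Prdm14, a repressor of the Dnmt3 genes in ESCs, had 749, 6, 487 and 0. Both were thus lower in F/A in each genotype, while Nsd2 was higher. Of 16 partners of Trim28 and Zfp57, 2 were higher in WT (Atrx and Cbx5) and 3 lower (Ctcfl, Morc3 and Cbx1), against 0 and 5 in Cripto KO (Ctcfl, Smarcad1, Morc3, Zfp809 and Cbx1), and the WT counts lie below the shares over all genes. Smarcad1, a chromatin remodeler, was at a log2 ratio of -1.73 in Cripto KO. Between genotypes in F/A none of the 16 passed 2-fold, and their median log2 ratio was -0.39, against 0 for all genes. Of 13 measured one-carbon genes, Ahcyl1 was higher in each genotype and Shmt1, a serine hydroxymethyltransferase, was lower, with 2313, 699, 2127 and 728 counts. Gnmt and Mthfd1 were also past 2-fold lower in WT, and Mtrr in Cripto KO. None of the 10 genes of alpha-ketoglutarate supply, a cofactor of the Tet enzymes, passed 2-fold in either genotype.

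Of 15 measured germline genes whose promoters are known to be methylated in somatic cells, 13 were at least 2-fold lower in F/A in WT and 13 in Cripto KO, and 1 (Tdrkh) was higher in Cripto KO. Mael, a piRNA pathway gene, had 1158, 1, 541 and 2 counts in WT serum/LIF, WT F/A, Cripto KO serum/LIF and Cripto KO F/A, and Dazl, an RNA-binding protein of germ cells, had 541, 0, 147 and 0. In WT F/A 9 of the 15 genes and in Cripto KO F/A 10 were at or below the detection limit. The median log2 ratio of the list was -7.53 in WT and -5.67 in Cripto KO, or -6.66 and -5.21 when such counts are raised to the detection limit. The list already differed in serum/LIF, where 5 of the 15 genes were at least 2-fold lower in Cripto KO than in WT and 1 higher, with a median of -0.61, against 2.73% of all genes lower and 2.86% higher. Tdrkh and Sycp1 differed from the others, with Tdrkh at 240 counts in WT F/A against 190 in WT serum/LIF.

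**Figure D5:**
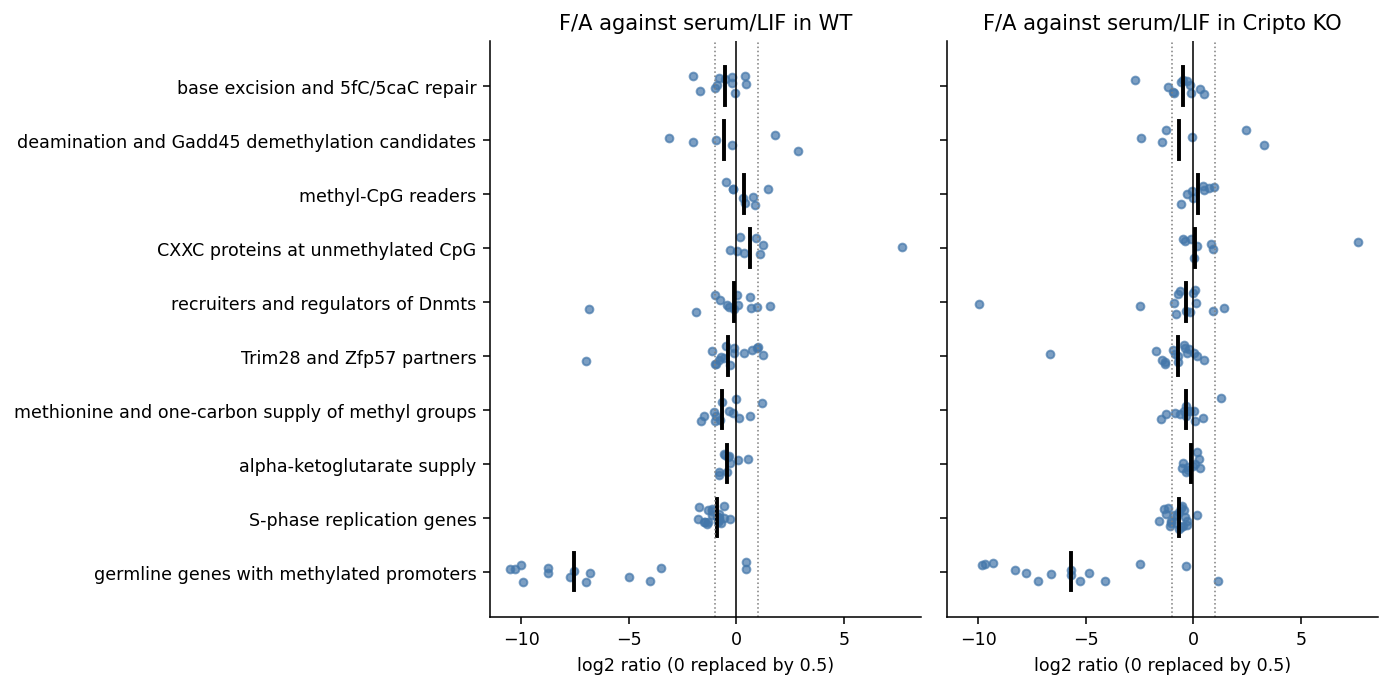
Log2 ratios, F/A over serum/LIF, of every measured gene of 10 lists in WT (left) and Cripto KO (right), 1 point per gene, with the list median as a black bar and dotted lines at 2-fold. The germline list has the lowest median, and the alpha-ketoglutarate list has no gene past 2-fold.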

How the data were processed

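The authors aligned paired reads to mm9 (NCBIM37) with TopHat2 (version 2.0.13), with the gene models of Ensembl release 67, and counted them per gene with HTSeq (version 0.6.1p1) in intersection-nonempty mode. The deposited tables were 2: raw counts, and a signal table of full quantile-normalized counts (preprocessCore 1.28.0) filtered with NOISeq 2.8.0 at 1 CPM, both made by the authors. The normalized values were recomputed from the raw counts here, with no difference. Gene names, positions and transcript lengths came from the NCBIM37 annotation of Ensembl release 65, which named 15424 of the 15462 normalized genes.

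With 1 library per group, no test was run. A gene was counted as higher or lower at a ratio of at least 2 of normalized values, with 0 replaced by 0.5. Intervals are 95% Clopper-Pearson intervals of the ratio of raw counts (for differences, from the delta method), with F/A Cripto KO counts divided by 2, and cover counting error only. Detection limits are 3 counts (6 in F/A Cripto KO). The length trend was a running median over 501 genes. The members and gene lists were chosen with earlier results of these data known. Named genes were all members, up to 4 genes per list with the largest change and at least 100 counts, and the 5 genes nearest to the member of widest range. Genes outside this rule (among them Aire, Nr0b1, Tfap2c, Ascl2, Otx2, Apobec1, Atrx, Cbx1, Cbx5, Gnmt, Tdrkh and Sycp1) were named after their values were seen. Alternatives were CPM, TMM (edgeR 4.0.16) and DESeq2 1.42.0 size factors, 5 added to every value, other folds and filters, and length adjustment. Calculations used Python 3.11.15, numpy 2.4.6, pandas 2.3.3, scipy 1.17.1, matplotlib 3.10.9 and R 4.3.3, and were checked on simulated data.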

Additional observations from a re-analysis of the deposited data

Results flagged for a closer look

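For 4 of the genes the Cripto KO against WT ratio had opposite signs in the 2 media with counting intervals that left out 0 in both, each with 1 library per genotype and medium, and the difference was not tested against replicates. The share of all genes that meets the same rule was not computed. The 4 genes therefore have no background to be read against, and counting intervals are narrow for genes with many counts. The log2 ratios in F/A and in serum/LIF were -0.55 and 0.34 for Dnmt3b, -0.73 and 0.70 for Tet1, -0.76 and 0.10 for Tet2, and -0.18 and 0.36 for Tet3. With the length trend removed by longest transcript, the F/A values were -0.46 for Dnmt3b, -0.16 for Tet1, -0.32 for Tet2 and 0.34 for Tet3, so the Tet3 signs were no longer opposite, nor were those of Tet2, whose serum/LIF value lay just below 0 after either length adjustment. Uhrf1 (0.25 and -0.04) and Dnmt3a (0.08 and -0.06) also had opposite signs, with intervals that span 0 in serum/LIF.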

How the results depend on the processing

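No paired analysis was possible because each group has 1 library and the replicate numbers were given in accession order. For the same reason no library could be left out. The counts of members in each direction were within 1.5 times of those reported under CPM, TMM, DESeq2 size factors, 5 added to every value, halving of the F/A Cripto KO counts (chosen after seeing the data) and both length adjustments. At a fold of 3, 1 member was higher in WT. At a fold of 1.5, 2 were higher in the Cripto KO transition, 2 were lower in Cripto KO than WT in F/A and 1 was higher in serum/LIF. Over all genes, at a fold of 1.5 the counts lower were 5018 in WT and 4525 in Cripto KO, and for Cripto KO against WT 1837 higher and 2213 lower in F/A and 1159 and 1075 in serum/LIF. At a fold of 3 they were 2261 higher and 1956 lower in WT, 1862 lower in Cripto KO, 344 and 361 in F/A and 165 and 161 in serum/LIF. With no filter, on CPM, or with a filter on mean counts, the genes counted were another set, so shares of that set are added. With no filter the counts were 6214 (26.7%) and 5263 (22.7%) in WT and 5017 (22.8%) and 5135 (23.3%) in Cripto KO. Between genotypes they were 1525 (7.11%) and 4388 (20.5%) in F/A and 1309 (5.79%) and 1818 (8.04%) in serum/LIF. With a mean of at least 50 raw counts they were 315 (2.46%) and 448 (3.5%) in F/A and 173 (1.35%) and 132 (1.03%) in serum/LIF. With 5 added they were 586 lower in F/A and 183 and 220 in serum/LIF. The log2 ratios of members that came nearest to changing side were those of Dnmt1, Dnmt3a, Dnmt3b and Trim28, which passed or lost 2-fold under a length adjustment. The Dnmt3a ratio in WT and the Tet3 ratio between genotypes in F/A changed sign by longest transcript, and values near 0 changed sign under at least 1 alternative for Dnmt1 and Dnmt3a between genotypes in F/A, for Dnmt1, Tet2 and Trim28 between genotypes in serum/LIF, and for Dnmt1, Dnmt3a and Trim28 in the difference between transitions. That difference changed sign for Tet3 as well. For Dnmt3b it stayed under 1 in size in 5 of 7 alternatives and reached -1.01, and for Tet1 it stayed over 1 in 6 of 7. Depth limits Dnmt3l in F/A, at 13 and 8 counts, and germline genes at 0. The precision given covers counting error only, and no statement extends to other cultures or clones.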
